A study of Mus musculus with 8 samples.

Results

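The genes described here build the pathway that puts peptides and lipids on MHC class I and class I-like molecules. They are 8 genes of the 19938 with a usable measurement: Nlrc5, B2m, Tap1, Tap2, Tapbp, Erap1, H2-M3 and Cd1d1. They were chosen by their role in that pathway, and every probeset assigned to exactly 1 gene among them was used, which gave 26 of 21789 probesets. Nlrc5 had 19 of these and the other genes 1 each. In addition, 2 probesets assigned to both Tapbp and another gene were left out.

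Nearly every nucleated cell shows samples of its own proteins on MHC class I. Peptides cut in the cytosol are carried into the endoplasmic reticulum by the transporter made of Tap1 and Tap2, trimmed there by the aminopeptidase Erap1, and loaded with the help of tapasin (Tapbp) onto a heavy chain that is held together by beta-2 microglobulin (B2m). Nlrc5 is a transactivator that drives many of these genes from a shared promoter module. H2-M3 is a non-classical heavy chain that presents formylated peptides, and Cd1d1 is a class I-like chain that presents lipids. MHC class II, in contrast, belongs to professional antigen-presenting cells.

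The cells were cultured from mouse bone marrow progenitors (lymphoid primed multipotent progenitors, negative for lineage markers and positive for Sca, kit and high Flt3). They spent 4 days on OP9-DL4, a stromal line that expresses a Notch ligand, with IL1 at 1 ng/ml (as labelled) and Flt3L at 5 ng/ml. The 8 arrays fell into 3 groups: Tcf7-/- (Tcf1 deficient) lineage-negative cells (LN cells) from 3 mice, Tcf7+/+ (wildtype) LN cells from 3 mice, and Tcf7+/+ T lineage cells in 2 biological replicates. Tcf7 encodes Tcf1, a transcription factor that acts early in T cell development. All cells were sorted as CD45.2+, where LN cells were Mac1-, Gr1-, Thy1- and CD25-, and T lineage cells were Thy1+ and CD25+. Both genotypes are labelled as of a line backcrossed for about 6 generations and kept on a mixed background, and no deficient T lineage cells arose per the labels. The labels give no age for the mice. The comparisons ask whether loss of Tcf1, or entry into the T lineage, went with a change in the class I pathway.

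The arrays were alike in scale, with medians from 6.85 to 6.91, and the correlation r over all probesets within a group was 0.995 to 0.997 (probesets are not independent replicates). The T lineage label was checked against 8 T lineage markers, all of which were higher than in wildtype LN cells. Among them Thy1 and Il2ra (CD25) are the sort markers, so the gate set their direction and they are no independent check. The others rose by 0.51 (Bcl11b) to 6.05 (Cd3g). The mean over all 8 markers, sort markers included, was 9.19 and 9.93 on the T lineage arrays, and 6.5 to 6.64 on the wildtype LN arrays. The LN cells carried dendritic cell markers, with a mean over 11 genes of 9.43 to 9.69 in wildtype and 9.29 to 9.54 in deficient cells against 6.20 to 6.31 in T lineage cells, and 9 of the 11 were lower in T lineage cells by limma's test against wildtype LN cells. Over 11 granulocyte and monocyte markers the means were 8.49 to 9.06, 8.53 to 8.59 and 6.52 to 6.69, with 7 lower. On the 10 stromal markers they were 6.38 to 6.44, 6.37 to 6.56 and 6.42 to 6.43, with 0 called by limma between T lineage and wildtype LN cells (0 at an unadjusted p under 0.05). Between the genotypes 0 were called and 2 had an unadjusted p under 0.05. These were Sparc (0.54 higher in deficient cells, limma adjusted p = 0.0997) and Pdgfrb (0.39 higher, 0.688). Against deficient cells 1 of the 10, Sparc, was called lower in T lineage cells (-0.54, adjusted p = 0.0021). In such bulk samples, fewer cells of a type and less RNA per cell cannot be told apart.

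Promoter sequences from RefSeq (GRCm38.p6, from 250 bases before to 50 after the listed start) were at hand for 5 of the 8 genes: B2m, Tap1, Tapbp, Erap1 and H2-M3. They are shown because the module through which Nlrc5 acts on class I genes, and its relative Ciita on class II genes, contains an X2 box followed by a Y box. The letters searched were TGACG as the X2 core and ATTGG as the Y core, with 10 to 30 bases between them in that order, on both strands. The arrangement was found in B2m and in H2-M3, and it stands in 0.743% of the 32851 promoters of the table. In both genes the gap was 20 bases. H2-Aa, an MHC class II chain, has it with a gap of 21 bases and is set beside them. The letters and the gap were chosen with these sequences in view. The 3 stretches are chr2:122147594-122147648 on the plus strand, chr17:37270173-37270227 on the plus strand and chr17:34287857-34287912 on the minus strand, each read 5′ to 3′ on the gene's strand. Capitals mark only the X2 and Y cores of the pair. Further cores on the opposite strand are not marked: a Y core between them in H2-M3, and an X2 core (CGTCA) overlapping the marked one in H2-Aa.
B2m: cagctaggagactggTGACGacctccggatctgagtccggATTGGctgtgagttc
H2-M3: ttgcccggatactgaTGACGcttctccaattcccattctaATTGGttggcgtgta
H2-Aa: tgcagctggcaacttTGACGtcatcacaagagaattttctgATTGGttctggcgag

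Further motifs were looked for singly in the same windows of 300 bases, again on both strands. An interferon-response-like motif (GAAA, any 2 bases, GAAA) was present in B2m and Erap1 and in 3.44% of all promoters, and a kappaB-like motif (GGG, any 2 bases, TTTCC) in B2m and in 1.63%. TGACG alone was present in B2m, Tap1 and H2-M3 and in 20.8% of all promoters, and ATTGG alone in B2m, Tap1, Tapbp and H2-M3 and in 37.4%. These single cores are therefore common. The 250 bases upstream of B2m (chr2:122147437-122147686, plus strand) and of Tap1 (chr17:34187306-34187555, plus strand) are given because B2m held all 4 motifs and because Tap1 faces the immunoproteasome gene Psmb9 across 225 bases. Capitals mark every match to any of the 4 motifs on either strand. A match describes the letters and is not a binding site.
B2m: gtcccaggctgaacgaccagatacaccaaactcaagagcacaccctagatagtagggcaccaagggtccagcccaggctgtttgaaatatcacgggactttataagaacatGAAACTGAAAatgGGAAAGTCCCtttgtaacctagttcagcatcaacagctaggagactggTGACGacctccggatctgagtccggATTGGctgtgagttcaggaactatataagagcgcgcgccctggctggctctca
Tap1: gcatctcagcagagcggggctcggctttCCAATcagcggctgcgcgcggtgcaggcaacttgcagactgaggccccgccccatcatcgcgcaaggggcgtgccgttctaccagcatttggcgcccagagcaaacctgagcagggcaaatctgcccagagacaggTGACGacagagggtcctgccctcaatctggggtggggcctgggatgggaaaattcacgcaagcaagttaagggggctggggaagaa

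Both antigen-presenting chains among the 8 genes, H2-M3 and Cd1d1, were lower in T lineage cells. Tap2 was called higher there against wildtype LN cells, close to the threshold. The other genes were not called in any comparison by their brightest probeset. Values are log2 levels after RMA, and differences are log2 differences from limma with their standard error (SE), called at a Benjamini-Hochberg adjusted p under 0.05 over all 21789 probesets. Between T lineage and wildtype LN cells 1 of the 8 genes was higher and 2 were lower, where 18.0% of all probesets were called (7.66% higher and 10.4% lower). Of those calls 42.5% were higher, and 52% were after a second quantile normalization. Between T lineage and deficient LN cells 0 were higher and 2 lower, against 14.1% of all probesets (5.98% higher and 8.16% lower). Between the genotypes 0 of 8 were called by limma, and 0 had an unadjusted p under 0.05, where 0.00459% of all probesets were called. An unadjusted p under 0.05 was seen for 3, 3 and 0 of the 8 in these comparisons, against 29.4%, 26.2% and 4.92% of all probesets. The arrays of the groups did not overlap for 6, 4 and 1 of the 8, against 47.8%, 40.7% and 9.95%. The median of the 8 differences was -0.02, -0.11 and 0.06 in these comparisons, beside 0.04, 0.04 and -0.01 over all probesets. Without regard to sign, the median size was 0.18, 0.14 and 0.06, beside 0.13, 0.12 and 0.06 over all probesets. The T lineage comparisons share the T lineage arrays and are not independent of each other.

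**Figure D1:**
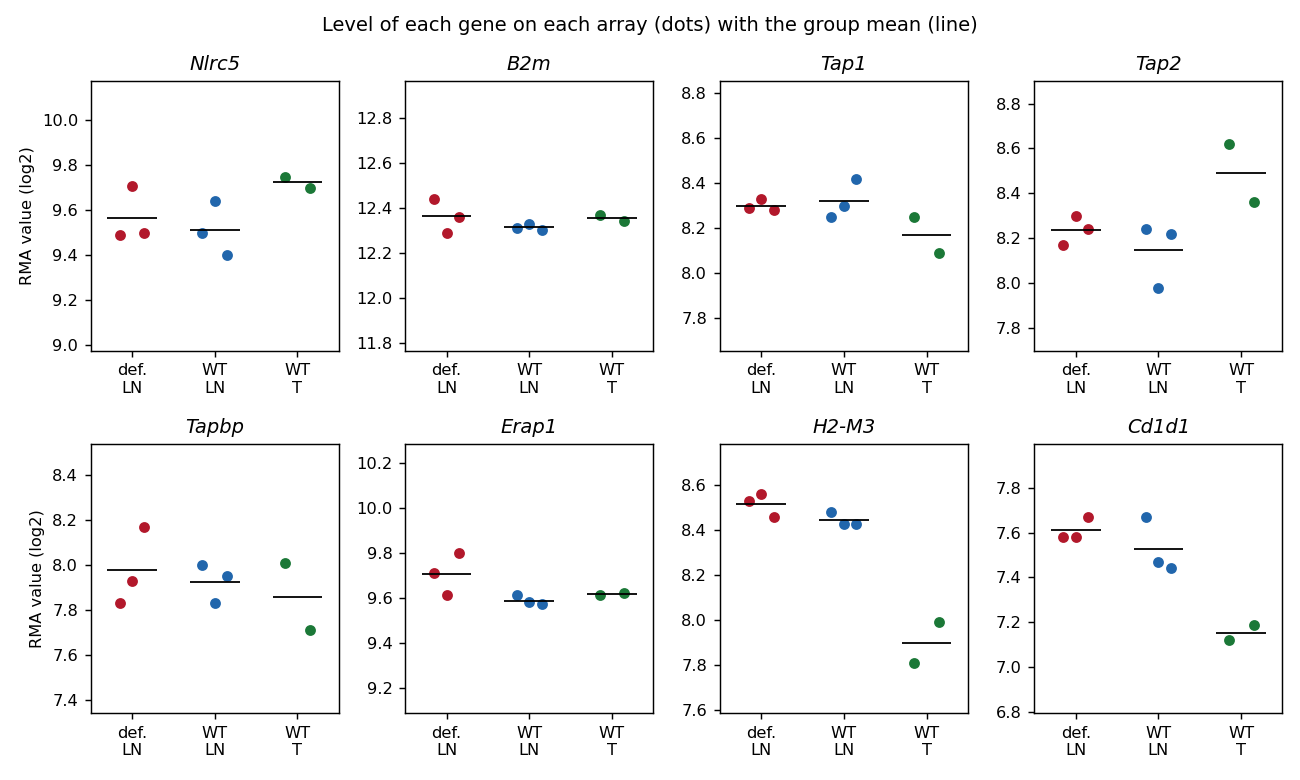
Level of each of the 8 genes on each of the 8 arrays (dots, log2 RMA value) in deficient LN (def. LN), wildtype LN (WT LN) and wildtype T lineage (WT T) cells, with the group mean as a line; every panel spans the same number of log2 units, and Nlrc5 is its brightest probeset. H2-M3 and Cd1d1 lie lower on both T lineage arrays than on all 6 LN arrays, and the dots of B2m span 0.15 over all 8 arrays.

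Nlrc5 (chr8:94434335-94527272), the class I transactivator, was not called in any comparison by its brightest probeset. That probeset (10574100) read 9.49, 9.71 and 9.50 on the deficient arrays, 9.50, 9.64 and 9.40 on the wildtype LN arrays and 9.75 and 9.70 on the T lineage arrays. The T lineage arrays were above all wildtype LN arrays, and 1 deficient array lay between them. The difference between T lineage and wildtype LN cells was 0.21 (SE 0.10, 95% interval -0.01 to 0.43, limma adjusted p = 0.183), and between the genotypes 0.05 (SE 0.09, interval -0.14 to 0.25, adjusted p = 0.999).

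All 19 probesets of Nlrc5 allowed the same gene to be read many times over on the same RNA, so they are repeated readings and not replicates. In T lineage cells 17 of the 19 lay above wildtype LN cells, and how many of all probesets did was not counted. The median difference of the 19 was 0.07 (0.04 over all probesets), with a range from -0.32 to 0.51. None passed limma's test, and 3 had an unadjusted p under 0.05, where 18.0% and 29.4% of all probesets did. When the dimmest 40% of all probesets were left out, 14 of Nlrc5 remained, of which 14 lay above 0 and 0 were called. The lowest of the 19 (10574135, -0.32) was among those left out, and the average over all 19 given below includes it. In 4 of 16 other settings 1 probeset was called: higher after a second quantile normalization, without deficient array 1 (10574098, 0.32, adjusted p = 0.0424) and without T lineage array 1, and lower with the replicate number as a block. Against deficient cells 17 of 19 were likewise above 0 (median 0.11, beside 0.04 over all probesets), or 13 of 14 without the dimmest 40%. Of the 19, 1 passed as higher, where 5.98% of all probesets did. That probeset (10574098) read 6.77, 7.04 and 7.11 in deficient, 7.07, 7.13 and 6.97 in wildtype LN and 7.51 and 7.25 in T lineage cells, a difference of 0.40 (SE 0.12, adjusted p = 0.0408). The call was lost in 10 of 16 other settings, with differences from 0.28 to 0.53 and adjusted p from 0.03 to 0.295. It ended without deficient array 1 (0.30, adjusted p = 0.11), deficient array 2 (0.44, 0.0551), each of the 3 arrays of wildtype LN cells (0.40 each; 0.062, 0.0546 and 0.053) or T lineage array 1 (0.28, 0.295). The probeset of highest difference (10574102, 0.51) read 7.82 on 1 T lineage array and 8.59 on the other. Averaged over all 19 probesets, Nlrc5 stood at 6.99 ± 0.10 (SD, n = 3) in deficient, 7.01 ± 0.07 (SD, n = 3) in wildtype LN and 7.11 ± 0.07 (SD, n = 2) in T lineage cells. The averaged difference between T lineage and wildtype LN cells was 0.10 (SE 0.08, 95% interval -0.09 to 0.29, adjusted p = 0.501). Between the genotypes 12 of 19 probesets were below 0 and 7 above. By limma 0 were called and 0 had an unadjusted p under 0.05, where 0.00459% and 4.92% of all probesets did.

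**Figure D2:**
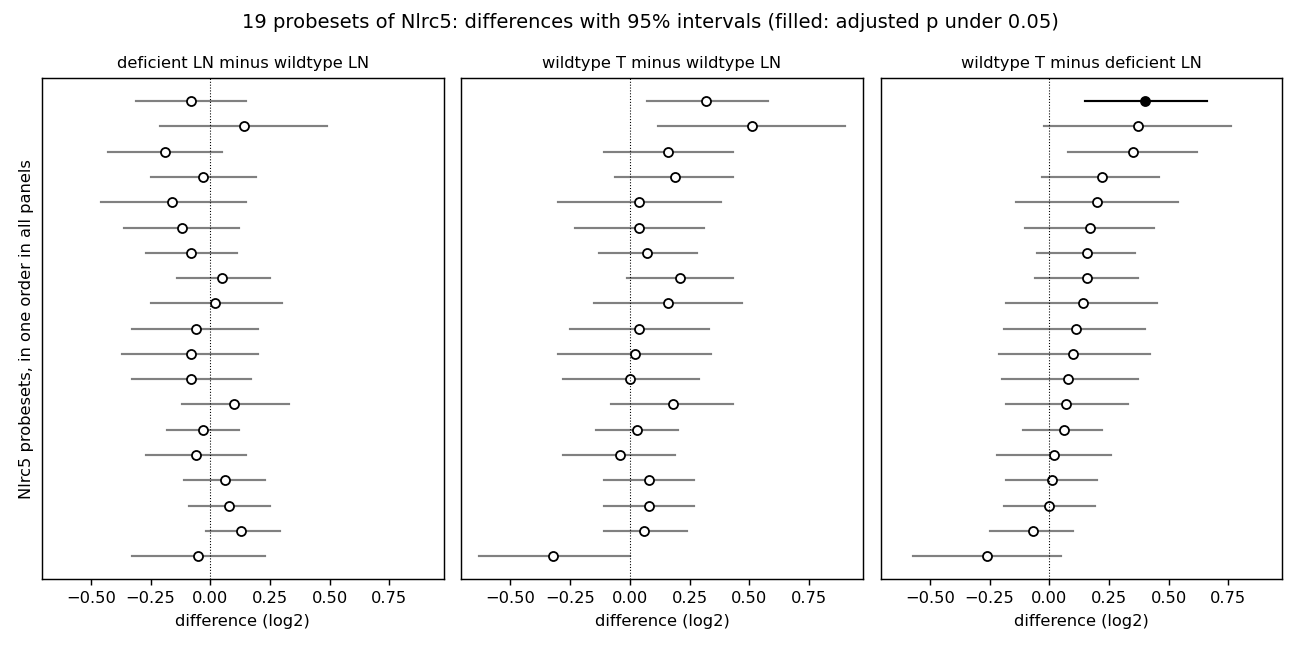
Differences (log2, dots) with 95% intervals (lines) for the 19 probesets of Nlrc5 in the 3 comparisons; the probesets keep 1 order in all panels, and filled dots have an adjusted p under 0.05. Of the 19 dots 17 lie above 0 in the middle panel with none filled, 17 lie above 0 in the right panel with 1 filled, and 7 lie above 0 in the left panel. Over all probesets the median difference was 0.04 in the middle and right comparisons, and 5.98% were called higher in the right one.

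B2m (chr2:122147687-122153082), the light chain shared by all class I molecules, had the narrowest spread of the 8 genes. It read 12.44, 12.29 and 12.36 in deficient, 12.31, 12.33 and 12.30 in wildtype LN and 12.37 and 12.34 in T lineage cells. The T lineage arrays lay inside the range of the deficient arrays. T lineage cells differed from wildtype LN cells by 0.04 (SE 0.07, 95% interval -0.12 to 0.21, limma adjusted p = 0.755) and from deficient cells by -0.01 (SE 0.07, interval -0.17 to 0.15, adjusted p = 0.954). The genotypes differed by 0.05 (SE 0.07, interval -0.09 to 0.20, adjusted p = 0.999). The size of the T lineage difference was exceeded by 81% of all probesets in that comparison.

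The subunits of the peptide transporter had differences of opposite sign in T lineage cells, and only that of Tap2 passed the test, close to its threshold. Tap1 (chr17:34187556-34197225) read 8.29, 8.33 and 8.28 in deficient, 8.25, 8.30 and 8.42 in wildtype LN and 8.25 and 8.09 in T lineage cells. Its difference from wildtype LN cells was -0.15 (SE 0.08, 95% interval -0.34 to 0.03, adjusted p = 0.256) and from deficient cells -0.13 (SE 0.08, adjusted p = 0.375). Tap2 (chr17:34204479-34216321) read 8.17, 8.30 and 8.24 in deficient, 8.24, 7.98 and 8.22 in wildtype LN and 8.62 and 8.36 in T lineage cells. Both T lineage arrays lay above all LN arrays, and they differed from each other by more than the difference between the lowest T lineage array and the highest LN one. Tap2 rose by 0.34 over wildtype LN cells (SE 0.11, 1.27-fold, limma adjusted p = 0.0498). The call was lost in 11 of 16 other settings, with differences from 0.21 to 0.47 and adjusted p from 0.0175 to 0.37. Leaving out 1 array ended it for 7 of the 8 arrays: adjusted p was 0.0576, 0.0611 and 0.0694 without each deficient array, 0.0541, 0.147 and 0.0722 without each wildtype LN array, and 0.37 without T lineage array 1, where the difference was 0.21. Against deficient cells Tap2 differed by 0.25 (SE 0.11, adjusted p = 0.159). Between the genotypes Tap1 differed by -0.02 and Tap2 by 0.09 (adjusted p = 0.999 for each).

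Tap1 and Tap2 lie beside the immunoproteasome genes Psmb9 and Psmb8 in the MHC region of chromosome 17 (Psmb9, Tap1, Psmb8, Tap2 in that order in RefSeq's GRCm38.p6). These neighbours encode the catalytic subunits that favour peptides suited to class I. Named for this position, Psmb9 differed by 0.04 (adjusted p = 0.85) and Psmb8 by 0.12 (adjusted p = 0.311) between T lineage and wildtype LN cells. Tapbp and H2-M3 lie on the same chromosome.

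Tapbp (chr17:33919478-33929290), tapasin, which bridges the transporter and the heavy chain, overlapped between all groups. It read 7.83, 7.93 and 8.17 in deficient, 8.0, 7.83 and 7.95 in wildtype LN and 8.01 and 7.71 in T lineage cells. The difference of T lineage from wildtype LN cells was -0.06 (SE 0.12, 95% interval -0.33 to 0.20, adjusted p = 0.772), and this turned to 0.09 on leaving out the second T lineage array and to 0.01 after a second quantile normalization. Erap1 (chr13:74639573-74693205), the peptide-trimming aminopeptidase, read 9.71, 9.61 and 9.80 in deficient, 9.61, 9.58 and 9.57 in wildtype LN and 9.61 and 9.62 in T lineage cells. T lineage cells differed from wildtype LN cells by 0.03 (SE 0.08, interval -0.14 to 0.20, adjusted p = 0.851). Erap1 had the largest difference of the 8 genes between the genotypes, 0.12 higher in deficient cells (SE 0.07, interval -0.03 to 0.28, adjusted p = 0.999), and 19.2% of all probesets differed by more.

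H2-M3 (chr17:37270234-37274485), the non-classical heavy chain for formylated peptides, had the largest change of the 8 genes. It read 8.53, 8.56 and 8.46 in deficient, 8.48, 8.43 and 8.43 in wildtype LN and 7.81 and 7.99 in T lineage cells. Both T lineage arrays lay below all 6 LN arrays. H2-M3 fell by 0.55 against wildtype LN cells (SE 0.08, 1.46-fold, limma adjusted p = 7.54e-04) and by 0.62 against deficient cells (SE 0.08, 1.53-fold, adjusted p = 4.23e-04). The calls stood in all 16 other settings of each comparison, with differences from -0.63 to -0.46 and from -0.70 to -0.53. The genotypes differed by 0.07 (SE 0.07, interval -0.09 to 0.23, adjusted p = 0.999). The order of the means was therefore T lineage at 7.90 ± 0.12 (SD, n = 2), wildtype LN at 8.45 ± 0.03 (SD, n = 3) and deficient at 8.52 ± 0.05 (SD, n = 3), and the last pair was not separated.

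Cd1d1 (chr3:86995834-87012358), the lipid-presenting chain, was also lower in T lineage cells. It read 7.58, 7.58 and 7.67 in deficient, 7.67, 7.47 and 7.44 in wildtype LN and 7.12 and 7.19 in T lineage cells. Again both T lineage arrays lay below all LN arrays. Cd1d1 fell by 0.37 against wildtype LN cells (SE 0.09, 1.3-fold, limma adjusted p = 0.0121) and by 0.46 against deficient cells (SE 0.09, 1.37-fold, adjusted p = 0.00492). The first call ended without T lineage array 1 (-0.34, adjusted p = 0.085) and stood in the other 15 settings (-0.42 to -0.30), and the second stood in all 16. The genotypes differed by 0.08 (SE 0.08, interval -0.09 to 0.25, adjusted p = 0.999). Cd1d2, the neighbouring copy of Cd1d1, differed by 0.31 between T lineage and wildtype LN cells (SE 0.14, adjusted p = 0.18). Probe sequences were not used here, so how far probes of such related genes share signal was not tested. The dendritic cell and the granulocyte and monocyte markers given above fell in T lineage cells as did H2-M3 and Cd1d1, and their part in these falls was not tested.

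**Figure D3:**
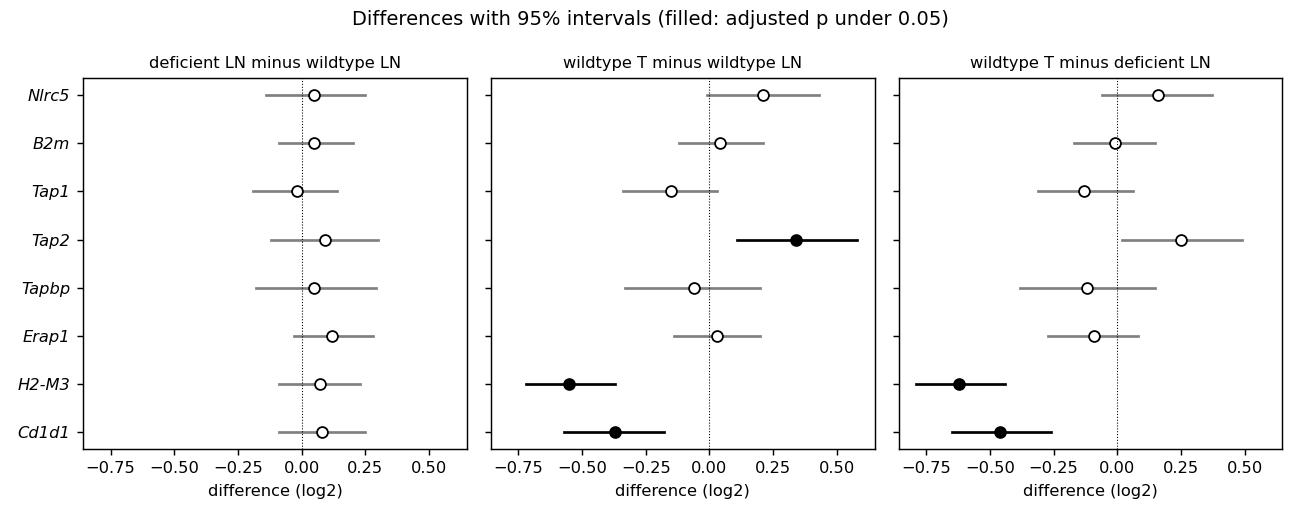
Differences (log2, dots) with 95% intervals (lines) of the 8 genes in the 3 comparisons; filled dots have an adjusted p under 0.05. In the left panel all intervals cross 0, and in the middle and right panels H2-M3 (-0.55 and -0.62) and Cd1d1 (-0.37 and -0.46) are filled below 0, with Tap2 (0.34) filled above 0 in the middle panel.

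The other genes of the pathway were read from 7 lists with 73 measured genes, chosen by role. Between the genotypes 0 of the 73 were called by limma and 4 had an unadjusted p under 0.05, where 0.00459% and 4.92% of all probesets did. The differences of the 73 ran from -0.54 to 0.18. Between T lineage and wildtype LN cells 5 rose and 17 fell, where 7.66% of all probesets rose and 10.4% fell. Of 13 MHC class I heavy chains with a probeset of their own, 0 rose and 1 fell (median 0.11): H2-T24, a non-classical heavy chain, fell by 0.57 (SE 0.11, adjusted p = 0.00435), from 7.64, 7.40 and 7.31 to 6.94 and 6.83. Of these 13, only H2-Q2, H2-T10 and H2-T24 were brighter than the dimmest 40% of probesets. For the dim ones, a difference near 0 says little about the gene. The classical chains H2-K1 and H2-D1 are assigned only to probesets shared with other genes, 2 each, and were not analysed here. Of 4 other chains that pair with B2m, or resemble those that do, 0 rose and 1 fell (median 0.06). This was Hfe, a regulator of iron uptake, which fell by 0.52 (SE 0.10, adjusted p = 0.00316), from 7.09, 7.12 and 7.32 to 6.72 and 6.58. Both falls were also called against deficient cells (-0.50 and -0.64, adjusted p = 0.0115 and 0.00115).

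Genes of peptide supply and of folding in the endoplasmic reticulum had medians above that of all probesets (0.04) between T lineage and wildtype LN cells. Without regard to sign, the median sizes of the differences were 0.14 and 0.20, beside 0.13 over all probesets. Of 14 genes of peptide generation 3 rose and 0 fell, with a median of 0.08, where 7.66% of all probesets rose and 10.4% fell. They were Thop1, a cytosolic peptidase (0.58, adjusted p = 0.00111), Psme3, a proteasome activator (0.55, 0.00224), and Lap3, an aminopeptidase (0.53, 0.00364). Of 11 folding and loading partners 1 rose and 0 fell, with a median of 0.12. Calr, the chaperone calreticulin of the loading complex, rose by 0.34 (SE 0.10, adjusted p = 0.0304). Against deficient cells Calr was not called (0.23, adjusted p = 0.144), and the tapasin relative Tapbpl was the 1 gene of the list that fell (-0.38, adjusted p = 0.0216).

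Most genes of the list for CD1d lipid loading fell in T lineage cells. Of 8 genes of lysosomal lipid handling, lysosomal proteolysis (Ctss and Ctsl) and adaptor sorting, 6 fell and 0 rose, with a median of -0.91 (10.4% of all probesets fell, with a median of 0.04 over all). Both proteases were among the falls (Ctsl by 1.06). Psap, the precursor of the saposins that load lipids, fell by 2.28 (SE 0.09, adjusted p = 1.10e-07), from 11.57, 11.27 and 11.50 to 9.21 and 9.13. Ctss, a lysosomal protease, differed by -4.03, Gm2a, an activator of ganglioside breakdown, by -1.30, and Npc2, a cholesterol carrier, by -0.76. These genes also serve lysosomes and class II presentation, and the dendritic cell markers fell beside them, with their part not tested.

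Interferon signals and transcription factors act upstream of the class I genes. Of 8 interferon receptors and kinases 4 fell and 1 rose, with a median of -0.59, where 10.4% of all probesets fell and 7.66% rose. Ifngr2, a chain of the interferon gamma receptor, fell by 2.07 (SE 0.09, adjusted p = 1.58e-07), from 9.15, 9.31 and 9.39 to 7.29 and 7.14. Ifnar2 and Ifnar1, the interferon alpha and beta receptor chains, differed by -1.21 and -0.94 and the kinase Jak2 by -1.18. The kinase Jak1, named after its value was seen, rose by 0.53 (adjusted p = 0.00212). Of 15 transcriptional regulators 5 fell and 0 rose, with a median of -0.12, against the same shares. Irf8, a factor of dendritic and myeloid cells, fell by 3.01 (adjusted p = 8.80e-07). Ciita, the class II counterpart of Nlrc5, fell by 1.26 (SE 0.14, adjusted p = 1.14e-04), from 8.0, 7.84 and 8.33 to 6.88 and 6.72, Irf2 by 0.74 and Stat2 by 0.82. Irf1, an interferon-induced activator of class I genes, was named after its value was seen and differed by 0.05 (adjusted p = 0.739). Of the subunits that bind the X and Y boxes (Rfx5, Rfxap, Rfxank, Nfya, Nfyb and Nfyc), likewise named afterwards, 0 were called by limma, with differences from -0.15 to 0.06.

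Markers of dendritic cells, to which Irf8 and Ciita also belong, fell in the same comparison, and their part was not tested.

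Genes with the X2 and Y arrangement stood at different values in the same comparison. B2m differed by 0.04, H2-M3 by -0.55 and the class II chain H2-Aa by -5.37 (SE 0.19, adjusted p = 3.85e-08). H2-Aa read 11.25, 11.28 and 11.59 in wildtype LN and 5.60 and 6.40 in T lineage cells. The 8 genes, the pathway lists and the dendritic cell markers together had 85 genes with a promoter sequence. Of these, 7 held the arrangement on either strand, where 0.743% of all promoters did. The letters and the gap were chosen with the printed sequences in view, so these shares are no independent comparison. Besides B2m, H2-M3 and H2-Aa, the 7 were Jak1, H2-K1, H2-D1 and H2-Q7. Jak1 held it on the opposite strand and rose by 0.53 (limma adjusted p = 0.00212). The heavy chains H2-K1, H2-D1 and H2-Q7 have no probeset of their own.

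**Figure D4:**
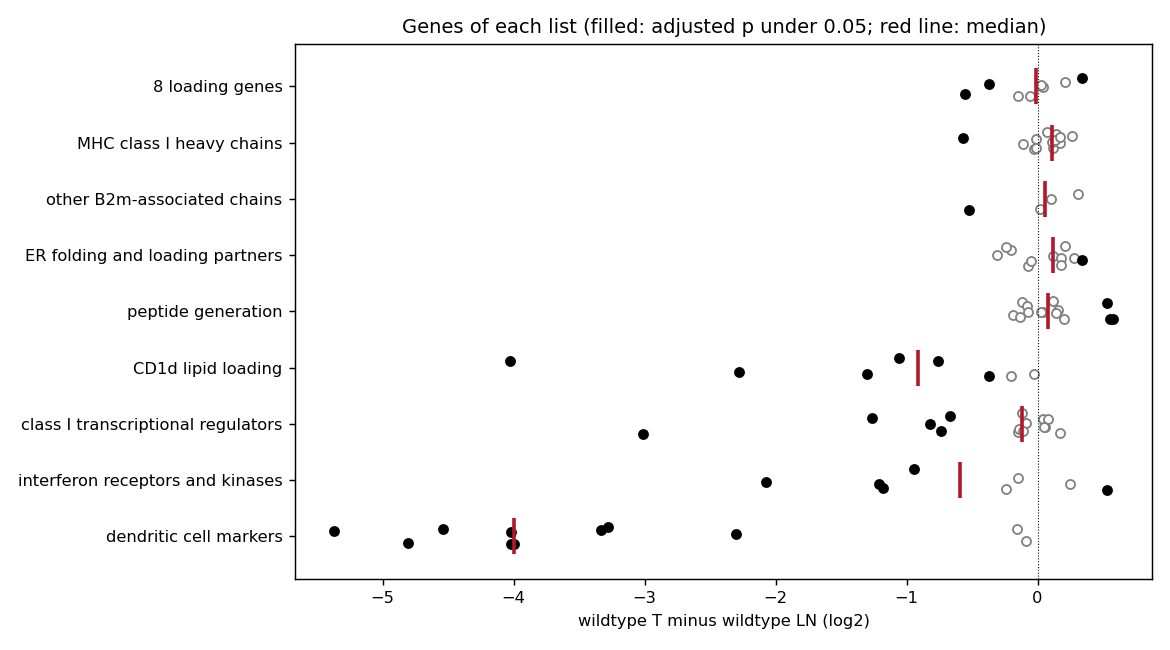
Difference between wildtype T lineage and wildtype LN cells (log2) for the 8 genes, the 7 pathway lists and the dendritic cell markers; 1 dot is 1 gene, filled where the adjusted p is under 0.05, dots are spread vertically for legibility, and the red line is the median. The upper 5 rows have medians from -0.02 to 0.12 and dots from -0.57 to 0.58, while the dendritic cell markers have a median of -4.00 and CD1d lipid loading -0.91. Among the heavy chains only H2-Q2, H2-T10 and H2-T24 are brighter than the dimmest 40% of probesets.

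The genes whose profile over the 8 arrays was most like a member's were sought among probesets with a range of at least the member's divided by 1.5, by the root mean square difference of profiles centred on their own mean. For H2-M3 they were Macroh2a1, a histone variant (0.05), Med21, a Mediator subunit (0.06), and Arrdc3 (0.06). For Cd1d1 they were Slc16a13 (0.04), Mtpn (0.05) and Setd2 (0.05), and for Tap2 they were H2bc1 (0.03), Ctdp1 (0.04) and Uck1 (0.04). None of these is in the pathway lists. The range criterion left 5537 probesets to compare for H2-M3, 10761 for Cd1d1 and 7912 for Tap2, over 8 arrays in 3 groups.

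**Figure D5:**
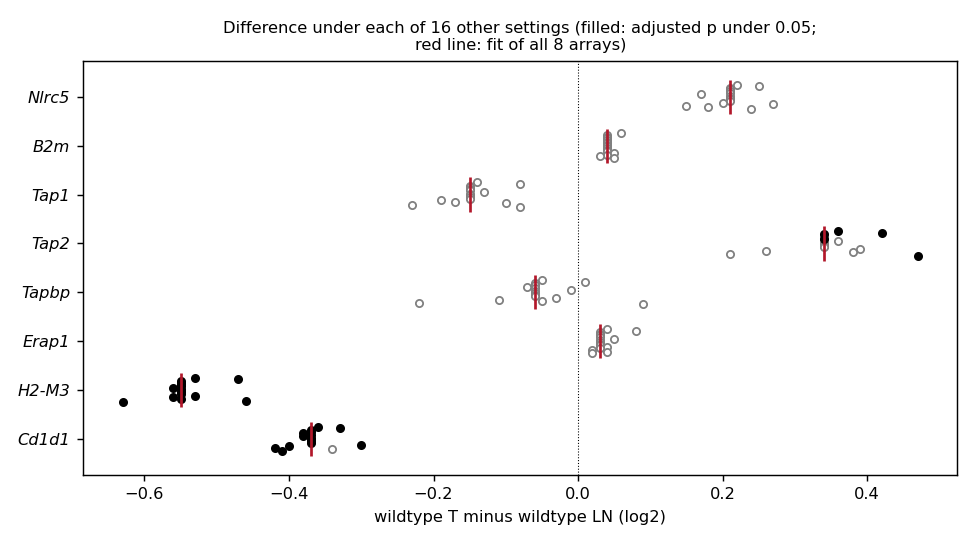
Difference between wildtype T lineage and wildtype LN cells (log2) for the 8 genes under 16 other settings (dots, filled where the adjusted p is under 0.05), with the value from all 8 arrays as a red line. H2-M3 stays between -0.63 and -0.46 with every dot filled, Cd1d1 between -0.42 and -0.30 with 15 of 16 filled, and Tap2 between 0.21 and 0.47 with 5 of 16 filled.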

How the data were processed

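Expression was measured on 8 microarrays from 10 ng of total RNA each. The values deposited are log2 levels of probesets, which the authors made with RMA in Partek 6.5, per the submitters' processing notes; the log2 scale was read from the values. RMA options, scan dates and the array's genome build: not given in the sources used here. No detection call was used, and precision is limited by the number of arrays. Of 35399 probesets, 11989 were without a gene and 1621 had several, and 21789 with 1 gene were tested (identifiers matched RefSeq for 99.6%). All 8 arrays were fitted as 3 groups with limma 3.58.1 in R 4.3.3 (lmFit, eBayes, 5 residual degrees of freedom, two-sided). The fit was tested on simulated data: between T lineage and wildtype lineage-negative cells it recovered 45.3% of changes of 0.5 and 95% of changes of 1 (200 of 21789 probesets, 5 runs). In the data 3928 probesets were called in that comparison. The adjusted p depends on how many probesets change, so these recovery rates need not hold for the data.

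The members and lists were chosen with earlier results of these data known. All 8 members were named, each by its probeset of highest mean, with up to 4 called genes of smallest p per list (or the 2 of largest difference where none was called) and, for likeness, the 3 nearest genes. Gene positions are RefSeq's (GRCm38.p6). The targeted gene's transcript was not analysed here. Per the labels the lineage-negative arrays are separate mice; for the T lineage replicates no mice are named, so p may partly measure technical spread.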

Additional observations from a re-analysis of the deposited data

How the results depend on the processing

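Each comparison was refitted under 16 other settings, and Nlrc5 also as the mean of its probesets. The calls of H2-M3 stood throughout; those of Cd1d1, Tap2 and Nlrc5 probeset 10574098 are given with their losses above, and the cause of each loss was not tested. Between the genotypes, where no member was called in any setting, the 1 probeset called (lower) became 7 (3 higher, 4 lower) with median centring, 3 (1 and 2) with a second quantile normalization, 2 (1 higher) with only these groups, 6 (2 and 4) with array weights, 11 (5 and 6) with a trended robust prior, 0 with the replicate number as a block and 0 when every probeset of the table was tested. Leaving out 1 array gave 0 to 12 calls (0 to 1 higher, 0 to 11 lower), among them 12 without wildtype LN array 1, 4 without deficient array 1, 2 on omitting T lineage array 1 or 2, and 0 on omitting the array numbered 3 of deficient or of wildtype LN cells. The probesets called higher in T lineage cells against wildtype LN cells (1670) numbered 1009 to 1721 when 1 array was left out (1035 and 1009 without T lineage arrays 1 and 2). Those higher than in deficient cells (1302) numbered 789 to 1362 likewise (816 without deficient array 1, 802 and 789 without the T lineage arrays). In the other settings they numbered 1378 to 2174 and 884 to 1653, lowest when every probeset was tested and highest after a second quantile normalization.

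Some differences near 0 changed sign, none of them called. Leaving out 1 array at a time, the genotypes differed by -0.15 to 0.02 for Nlrc5 probeset 10574098, by -0.02 to 0.12 for Nlrc5 probeset 10574100 (-0.02 as the mean of probesets, 0.00 and just below 0 without wildtype LN array 3), by -0.04 to 0.13 for Tapbp and by -0.06 to 0.03 for Tap1. Tapbp in T lineage cells ranged likewise from -0.22 to 0.09 against wildtype LN cells (0.01 after a second quantile normalization) and from -0.27 to 0.03 against deficient cells, and B2m against deficient cells from -0.05 to 0.03 (0.00 with median centring or without T lineage array 2).

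The deviations of same-numbered arrays from their group means had r from -0.25 to 0.16 over probesets (0.16 and 0.12 for wildtype LN with T lineage arrays). With so few arrays per group the deviations are tied to each other, so these values cannot decide whether the numbers pair the samples. With the replicate block Tap2 had 0.36 (adjusted p = 0.0619) and Nlrc5 probeset 10574098 had 0.42 against deficient cells (0.0868), both no longer called, H2-M3 had -0.56 and Cd1d1 -0.38, both still called.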
